A study of Mus musculus with 12 samples.

Results

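The genes described here are the cardiac and slow-muscle forms of troponin and the tropomyosins, the regulatory proteins of the thin filament of muscle. They were chosen by name, 9 genes of 21959 in the deposited count table, and all 9 were found there through their Ensembl identifiers. They comprise the troponin T genes Tnnt2 and Tnnt1, the troponin I genes Tnni3 and Tnni1, the troponin C gene Tnnc1 and the tropomyosin genes Tpm1, Tpm2, Tpm3 and Tpm4. RNA came from heart ventricles of male mice aged 7 weeks and fed chow, 6 with a cardiac-specific knockout of Vps13c (Vps13c-cKO) and 6 wild type (WT). The Vps13c protein spans contact sites of organelles and moves lipid from one membrane to another. The labels name neither the driver of the knockout nor the deleted exons, the strain or any driver in WT mice. Each sample is 1 mouse, and poly-A RNA was sequenced. Counts are per gene, so splice forms, such as the alternative forms of Tnnt2 or Tpm1, were not resolved, and an isoform ratio here is the ratio of 2 related genes within a library.

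In striated muscle, tropomyosin lies along the actin filament and blocks the sites where myosin binds. Troponin C binds calcium, troponin I inhibits the contact of actin with myosin, and troponin T ties the complex to tropomyosin, so a rise of calcium moves tropomyosin aside and lets the heart contract. Adult mouse ventricle uses mainly Tnnt2, Tnni3, Tnnc1 and Tpm1. Slow skeletal fibres use Tnnt1 and Tnni1, of which Tnni1 is also the troponin I form of the embryonic heart, and they share Tnnc1 with the heart.

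Libraries held 12484523 to 14188716 gene counts in Vps13c-cKO and 13348018 to 15562942 in WT, and the 9 genes together took 1.59% ± 0.03 of them in Vps13c-cKO and 1.74% ± 0.06 in WT (SD, n = 6 each). Vps13c itself was at 16.3 to 20.3 CPM (the count divided by the TMM-scaled library size in units of 1e6) in Vps13c-cKO, against 54.6 to 68.6 CPM in WT, so all libraries stood with their labels. The 9 cardiomyocyte markers summed to 66239 to 72541 CPM in Vps13c-cKO and 68346 to 75508 CPM in WT. WT mouse 4 stood apart in atrial genes. Its library held 405 reads of the atrial light chain gene Myl7, against 0 to 5 reads in the other 11 libraries, and 114 reads of Sln, against 0 or 1. Without WT mouse 4, the same genes were called, 3 higher and 3 lower.

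Of the 9 genes, 8 passed the filter on low counts and were tested, and 6 of these 8 passed an adjusted p of 0.05 (Vps13c-cKO over WT), 3 upwards and 3 downwards. Over all 12384 tested genes, 10.7% were called, 5.65% higher and 5.1% lower. The median log2 fold change of the 8 genes was -0.06, against 2.75e-05 over all tested genes. Abundant adult heart forms (Tnnt2, Tnni3 and Tpm1) fell by small amounts, while Tnnc1 and the scarcer Tnnt1 and Tpm2 rose. In 4 of the 8, no Vps13c-cKO mouse overlapped a WT mouse in CPM, against 4.93% of all tested genes. Of the 4, Tnnt1 and Tpm2 lay above WT, as did 2.75% of all tested genes, and Tnni3 and Tpm1 below, as did 2.18%. In RNA of whole ventricle, fewer cells of a type and less RNA per cell cannot be told apart.

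Among the cardiac troponin genes, inhibitory and tropomyosin-binding subunits fell while the calcium-binding subunit rose. Tnni3 (ENSMUSG00000035458, chromosome 7), cardiac troponin I, was at 2171, 2227 and 2315 CPM in Vps13c-cKO (lowest, median and highest of 6 mice), against 2450, 2606 and 2737 CPM in WT. Every Vps13c-cKO mouse lay below every WT mouse. The Vps13c-cKO mean was 86.0% of the WT mean, a log2 fold change of -0.22 ± 0.03 (SE; edgeR quasi-likelihood test, adjusted p = 0.000138). Its annotated exons share 86 of 2063 bases with those of Dnaaf3, a gene of dynein arm assembly on the same strand, whose reads there cannot be told apart. Dnaaf3 stood at 4.04 ± 0.630 CPM in Vps13c-cKO and 6.11 ± 1.16 CPM in WT (SD, n = 6 each; log2 fold change -0.60 ± 0.14 SE, edgeR adjusted p = 0.00578).

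Tnnt2 (ENSMUSG00000026414, chromosome 1), cardiac troponin T, stood at 6108, 6376 and 6732 CPM in Vps13c-cKO and at 6417, 7027 and 7566 CPM in WT. The groups overlapped, since Vps13c-cKO mouse 1 (6732 CPM) lay above WT mice 1 and 5 (6417 and 6713 CPM). The fall was 0.13 ± 0.04 on the log2 scale (SE; edgeR adjusted p = 0.0173), and the adjusted p reached 0.0465 without WT mouse 3, the mouse with the highest Tnnt2 level. Tnnc1 (ENSMUSG00000091898, chromosome 14), the calcium sensor of heart and slow muscle, went the other way. It was at 1147, 1289 and 1350 CPM in Vps13c-cKO and at 984, 1134 and 1185 CPM in WT, with Vps13c-cKO mouse 4 inside the WT range. The log2 fold change of Tnnc1 was 0.18 ± 0.05 (SE; edgeR adjusted p = 0.0114).

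**Figure D1:**
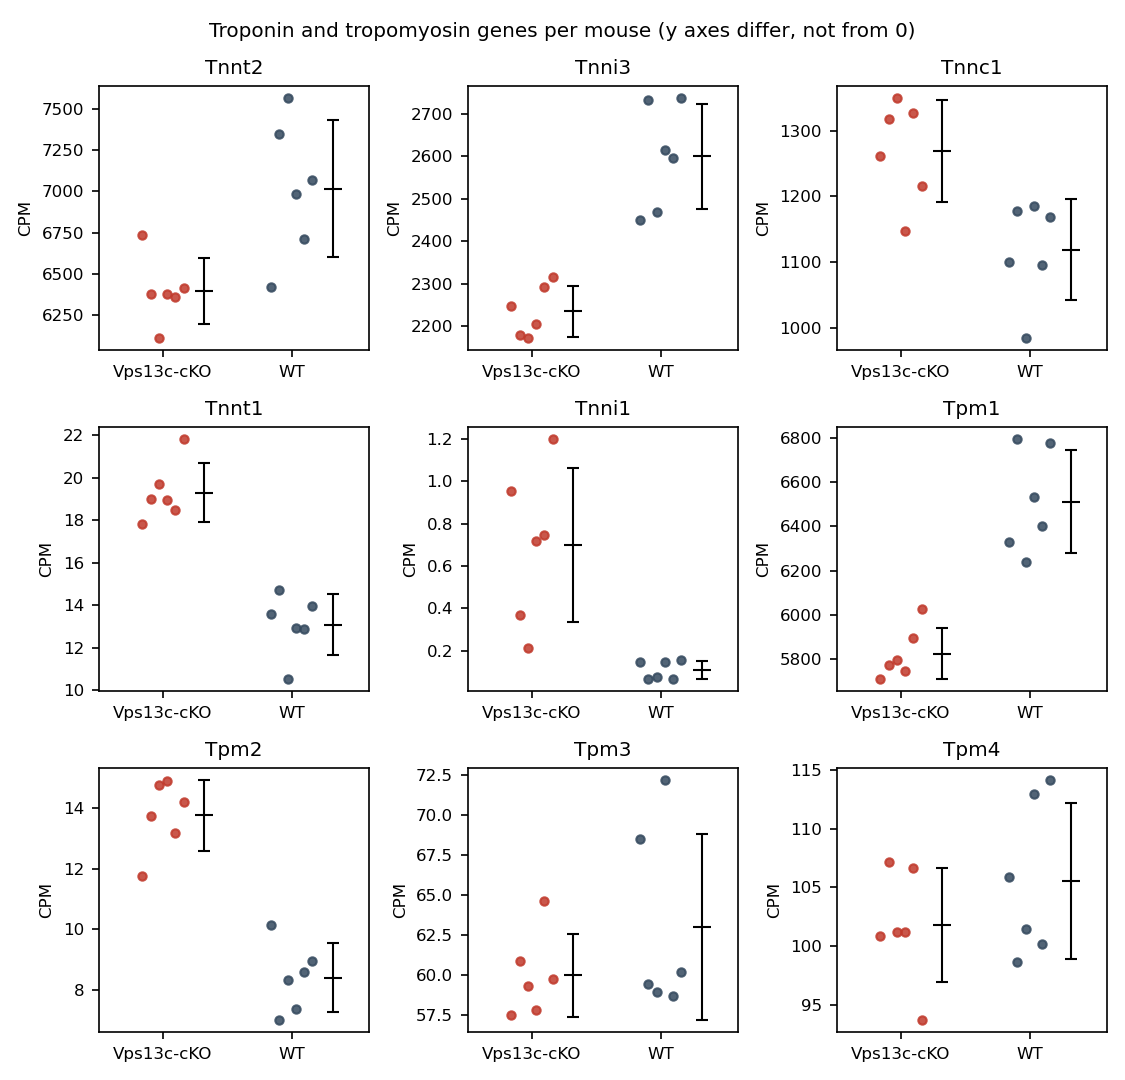
Levels of the 9 genes in each mouse, in CPM on a linear scale that differs between panels and does not begin at 0. Points are single mice, Vps13c-cKO left of WT, and the bars beside them are the mean ± SD of 6 mice. Tnni3 and Tpm1 in Vps13c-cKO lie below all WT mice, and Tnnt1, Tnni1 and Tpm2 above them.

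Slow-muscle troponin genes were higher in Vps13c-cKO, at levels far below the cardiac forms. Tnnt1 (ENSMUSG00000064179, chromosome 7), slow skeletal troponin T, was at 17.8, 19.0 and 21.8 CPM in Vps13c-cKO, against 10.5, 13.2 and 14.7 CPM in WT. All 6 Vps13c-cKO mice lay above all 6 WT mice. The mean was 1.47-fold that of WT (log2 fold change 0.56 ± 0.08 SE, edgeR adjusted p = 4.57e-05).

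Tnni1 (ENSMUSG00000026418, chromosome 1), slow skeletal troponin I, was close to the floor of detection. Vps13c-cKO mice 1 to 6 held 12, 5, 3, 9, 10 and 17 reads of it, against 2, 1, 1, 2, 1 and 2 reads in WT mice 1 to 6. No Vps13c-cKO library was as low as any WT library. The sums were 56 reads in Vps13c-cKO and 9 reads in WT, a ratio per scaled library of 6.55 (95% exact interval 3.21 to 15.1, which covers counting error only). Tnni1 did not pass the filter on low counts and so has no test in the main fit. Without that filter its log2 fold change was 2.60 (edgeR adjusted p = 0.00129), and DESeq2 gave 2.71 (adjusted p = 0.000732).

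Markers of skeletal muscle are given beside these values. Of the 9 slow-muscle genes listed, Tnnt1, Tnni1 and Tnnc1 among them, 8 were tested, with 3 higher (Tnnt1, Tnnc1 and the Z-disc gene Myoz2) and 1 lower (Myl2). The 9 genes summed to 12646 to 13321 CPM in Vps13c-cKO and 12494 to 13992 CPM in WT. Most of that sum was Myl2 and Myl3, which are also among the cardiomyocyte markers, so it does not gauge skeletal muscle. Myl2 stood at 5772 ± 149 CPM in Vps13c-cKO and 6322 ± 299 CPM in WT. Myl3 stood at 3385 ± 137 CPM in Vps13c-cKO and 3582 ± 266 CPM in WT (SD, n = 6 each). The fast-fibre myosin genes Myh1, Myh2 and Myh4 had at most 3 reads summed over a group, and Tnnc2 was listed at 0 in all 12 libraries. Of the annotated exon bases of Tnnc2, 592 of 800 lie opposite exons of Ube2c, and the strand setting of the counting is unknown, so its 0 is not read as a level. Of 12 fast-fibre genes listed, 6 were tested and 4 were higher (Tnni2, Tnnt3, Mylpf and Atp2a1), all 4 on chromosome 7. Over all tested genes, 5.65% were higher. In WT the lowest mouse stood at 0.404 CPM for Tnni2, 0.289 for Tnnt3, 0.573 for Mylpf and 0.191 for Atp2a1. These 4 passed the filter on low counts through their Vps13c-cKO libraries. Their count among tested genes is thus partly set by the filter. Myl1 on chromosome 1 and Ckm on chromosome 7 were not called. Myl1 stood at 21.1 ± 5.15 CPM in Vps13c-cKO and 23.4 ± 5.98 CPM in WT (SD, n = 6 each; edgeR adjusted p = 0.635). The list's summed level was 704 to 749 CPM in Vps13c-cKO and 604 to 729 CPM in WT. Most of that sum was the muscle creatine kinase gene Ckm, which heart also expresses, at 658 ± 26.8 CPM in Vps13c-cKO and 641 ± 46.9 CPM in WT (SD, n = 6 each; edgeR adjusted p = 0.66). Atp2a1, the calcium pump of fast fibres, stood at 33.0 ± 7.84 CPM in Vps13c-cKO and 0.605 ± 0.259 CPM in WT (SD, n = 6 each), a log2 fold change of 5.78 ± 0.21 (SE; edgeR adjusted p = 4.49e-14), with 763 of its 3477 exon bases opposite exons of Rabep2. Mylpf, a fast light chain gene, was at 7.32 ± 2.43 CPM in Vps13c-cKO and 0.783 ± 0.126 CPM in WT (log2 fold change 3.22 ± 0.23 SE, edgeR adjusted p = 4.93e-09). The part of skeletal muscle genes in the troponin values was not tested beyond these markers.

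Tropomyosin genes split in the same way, with the main heart form lower and a minor form higher. Tpm1 (ENSMUSG00000032366, chromosome 9), the principal tropomyosin of adult heart muscle, was at 5712, 5785 and 6025 CPM in Vps13c-cKO, against 6238, 6466 and 6795 CPM in WT. No mouse of one group reached the other group's range. Its log2 fold change was -0.16 ± 0.03 (SE; edgeR adjusted p = 0.00061). Tpm2 (ENSMUSG00000028464, chromosome 4), beta-tropomyosin of skeletal and smooth muscle, stood at 11.8, 14.0 and 14.9 CPM in Vps13c-cKO and at 7.00, 8.46 and 10.2 CPM in WT. All 6 Vps13c-cKO mice lay above the WT range, and the mean was 1.64-fold that of WT (log2 fold change 0.71 ± 0.09 SE, edgeR adjusted p = 1.8e-05).

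Tpm3, which serves slow fibres and the cytoskeleton, and Tpm4, a mainly cytoskeletal form, did not pass the threshold. Tpm3 (ENSMUSG00000027940, chromosome 3) ranged over 57.5 to 64.6 CPM in Vps13c-cKO and 58.7 to 72.2 CPM in WT (log2 fold change -0.07 ± 0.05 SE, edgeR adjusted p = 0.47). Tpm4 (ENSMUSG00000031799, chromosome 8) ranged over 93.7 to 107 CPM in Vps13c-cKO and 98.7 to 114 CPM in WT (log2 fold change -0.05 ± 0.04 SE, edgeR adjusted p = 0.539). The groups overlapped widely for both genes. Tropomyosin genes are close copies of each other, and no source used here says how reads that match several of them were counted, so their values are uncertain to that extent.

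Cells other than cardiomyocytes also make tropomyosins. Of 14 listed markers of smooth muscle and pericytes, 12 were tested, with 2 higher (Myh11 and Des) and 3 lower (Smtn, Rgs5 and Pdgfrb). The list summed to 3057 to 3167 CPM in Vps13c-cKO and 2974 to 3200 CPM in WT. The largest part of that sum was Des, at 1345 to 1408 CPM in Vps13c-cKO and 1100 to 1218 CPM in WT. Reads of Des cannot be assigned to a cell type in whole ventricle, so the sum does not gauge smooth muscle. Of 10 fibroblast markers, 7 were higher, and the list summed to 1378 to 1547 CPM in Vps13c-cKO and 1207 to 1318 CPM in WT, ranges that do not overlap. Of 8 macrophage markers, 4 were higher, at 313 to 367 CPM in Vps13c-cKO and 247 to 337 CPM in WT summed. Of 9 endothelial markers, 2 were lower, at 1493 to 1699 CPM in Vps13c-cKO and 1606 to 1797 CPM in WT summed. Their part in the Tpm2 and Tpm1 values was not tested. Of 9 cardiomyocyte markers, Mybpc3 was higher and Myl2 and Atp2a2 lower. Erythroid genes had 0 of 5 called by edgeR, with 0 at an unadjusted p under 0.05 and 0 by DESeq2 or limma-voom. Of 5 tested atrial markers 1 was called, Nppa, a natriuretic peptide gene, which was higher, and the list summed to 78.8 to 89.9 CPM in Vps13c-cKO and 61.2 to 139 CPM in WT, the highest being WT mouse 4.

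**Figure D2:**
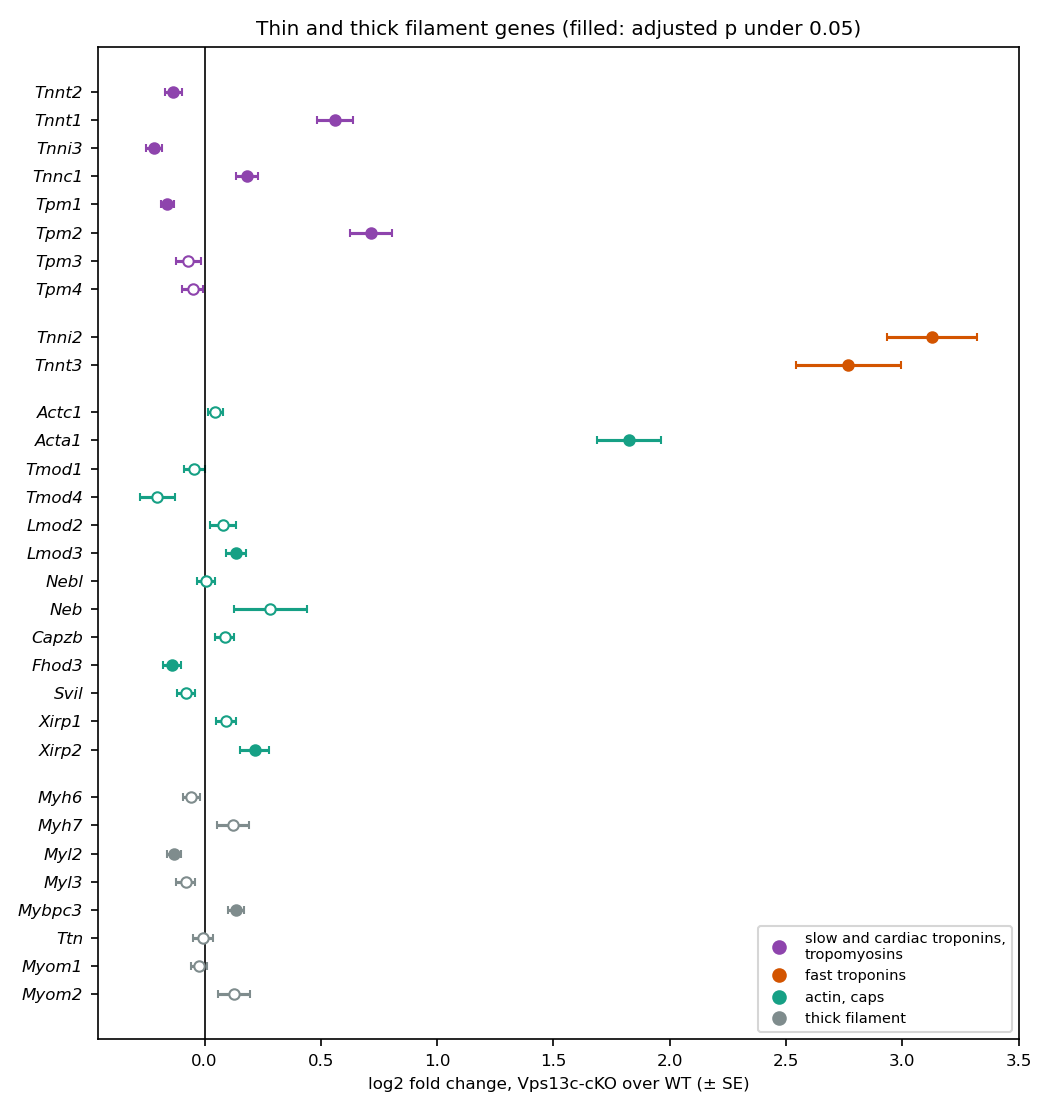
Log2 fold changes of Vps13c-cKO over WT with their standard errors, from the edgeR fit, for the 8 tested troponin and tropomyosin genes, the fast troponins, actins and filament caps, and the thick filament. Filled points passed an adjusted p of 0.05. The changes of the 8 tested genes, from -0.22 for Tnni3 to 0.71 for Tpm2, are smaller than those of Tnni2 (3.13), Tnnt3 (2.77) and Acta1 (1.82). Tnni1, not tested in this fit, is not shown, and had 2.60 in the edgeR fit without the filter on low counts.

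Ratios of related genes within a library do not depend on scaling between libraries. For 9 such ratios the difference of the mean log2 ratio of read counts was tested with a two-sided exact permutation test over mice, whose smallest possible p is 0.00216. Of the 9, 5 differed at that smallest exact permutation p (0.0039 after adjustment over the 9 ratios). That p is reached only when the groups do not overlap, so the lack of overlap in these 5 adds no further evidence. The ratios use the same reads as the edgeR fit and are not independent of it. All ratios are given with 0.5 reads added to each count, and as genes differ in length, a ratio is compared here between groups only.

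The ratio of the minor to the main heart form was higher in Vps13c-cKO for troponin T, troponin I and Tpm2 over Tpm1. Tnnt1 reads amounted to 0.265 to 0.341% of Tnnt2 reads in Vps13c-cKO, against 0.139 to 0.212% in WT, a difference of 0.70 ± 0.10 on the log2 scale (SE). For Tpm2 over Tpm1 the range was 0.207 to 0.26% in Vps13c-cKO and 0.104 to 0.161% in WT, a log2 difference of 0.88 ± 0.10. Tnni1 over Tnni3 was at 0.0114 to 0.0534% in Vps13c-cKO and 0.00368 to 0.00757% in WT. Its log2 difference, 2.45 ± 0.40 with 0.5 reads added to each count, rests on the few Tnni1 reads and was 1.36 with 5 reads added and 2.80 with none. The ratios of Tpm3 and Tpm4 to Tpm1 did not pass. Their log2 differences were 0.09 ± 0.06 for Tpm3 over Tpm1 (exact permutation p = 0.171, adjusted p = 0.192) and 0.11 ± 0.05 for Tpm4 over Tpm1 (exact permutation p = 0.0649, adjusted p = 0.0974). Without Vps13c-cKO mouse 6, which had the lowest ratio of its group, the Tpm4 over Tpm1 difference was 0.14 (exact permutation test, adjusted p = 0.00649). With any other single mouse left out, this ratio did not pass. Vps13c-cKO mouse 6 was singled out by its value, so the p without it is no separate evidence.

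Within the cardiac troponin complex, both other subunits were lower relative to Tnnc1. Tnni3 over Tnnc1 was at 1.61, 1.75 and 1.92 in Vps13c-cKO (lowest, median and highest), against 2.21, 2.33 and 2.51 in WT, a log2 difference of -0.40 ± 0.05 (SE). Tnnt2 over Tnnc1 was at 4.52, 5.06 and 5.56 in Vps13c-cKO, against 5.83, 6.09 and 7.69 in WT, a log2 difference of -0.32 ± 0.08. Neither pair of ranges overlapped. Tnni3 over Tnnt2 was at 0.334, 0.351 and 0.361 in Vps13c-cKO and at 0.326, 0.378 and 0.387 in WT, with a log2 difference of -0.08 ± 0.04 that did not pass (exact permutation p = 0.0779, adjusted p = 0.1). WT mouse 3 alone held the low value of 0.326, and without it the difference was -0.12 (exact permutation test, adjusted p = 0.00487). With any other single mouse left out, this ratio did not pass. WT mouse 3 was singled out by its value, so the p without it is no separate evidence. Tpm1 over Tnnt2 differed by -0.03 ± 0.04 (exact permutation p = 0.526, adjusted p = 0.526), with 0.848 to 0.949 in Vps13c-cKO and 0.824 to 0.986 in WT.

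**Figure D3:**
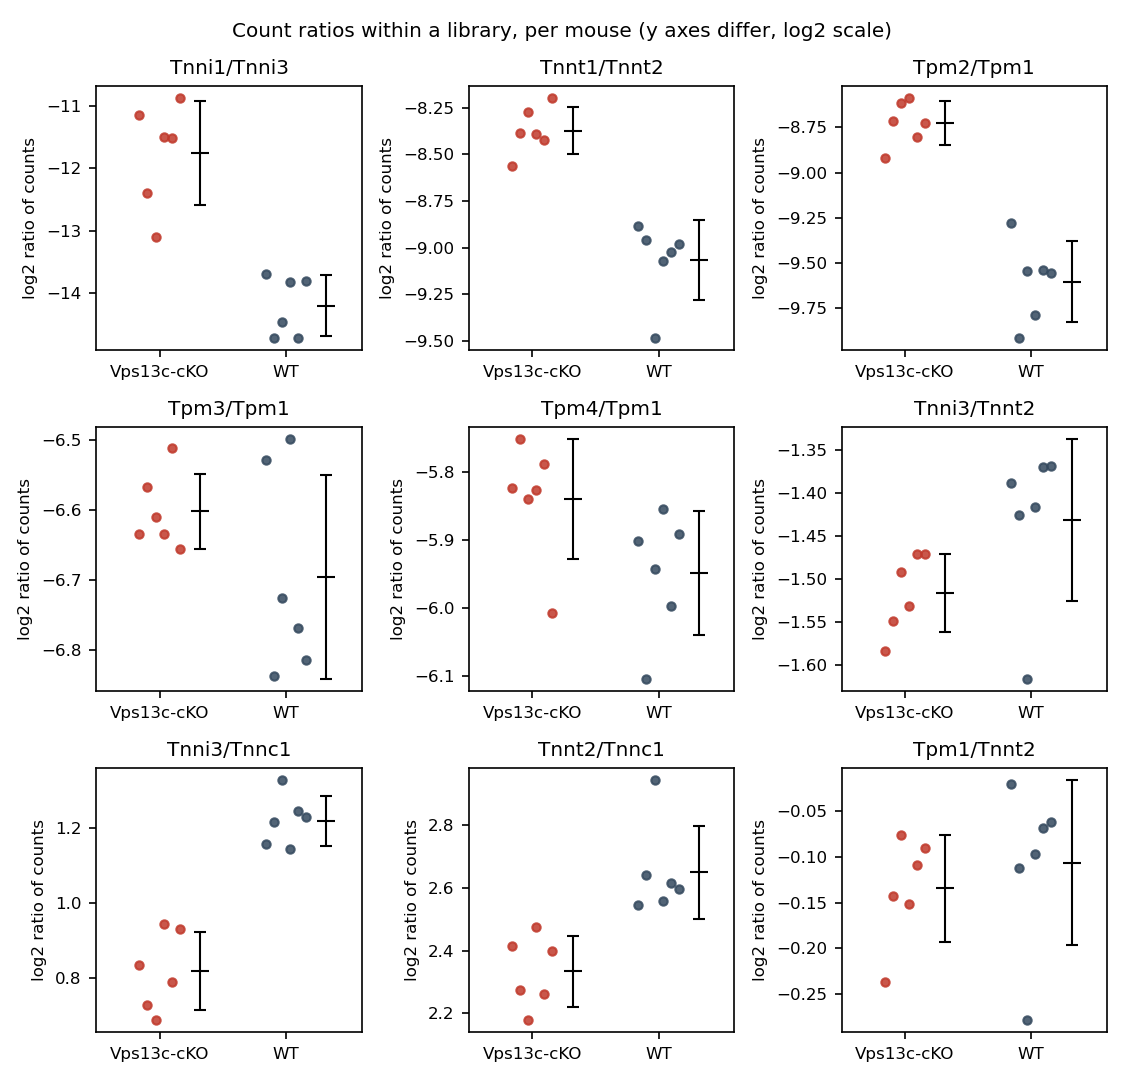
Log2 ratios of read counts of related genes within each library, 0.5 reads added to each count, with axes that differ between panels. Points are single mice, Vps13c-cKO left of WT, and bars are the mean ± SD of 6 mice. Tnni1/Tnni3, Tnnt1/Tnnt2 and Tpm2/Tpm1 lie higher in all Vps13c-cKO mice than in any WT mouse, and Tnni3/Tnnc1 and Tnnt2/Tnnc1 lower.

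Spread between mice differed from gene to gene. The coefficient of variation of the CPM was 2.00% in Vps13c-cKO and 3.57% in WT for Tpm1, and 2.67% in Vps13c-cKO and 4.77% in WT for Tnni3. For Tnnt1 it was 7.19% in Vps13c-cKO and 11.03% in WT, for Tpm2 8.46% in Vps13c-cKO and 13.5% in WT, and for Tnni1 52.2% in Vps13c-cKO and 41.0% in WT. It was 6.10% in Vps13c-cKO and 6.86% in WT for Tnnc1, and 3.12% in Vps13c-cKO and 5.93% in WT for Tnnt2. For Tpm3 it was 4.32% in Vps13c-cKO and 9.28% in WT, and for Tpm4 4.81% in Vps13c-cKO and 6.31% in WT. The spread did not simply follow abundance, since Tnnc1 varied more than the scarcer Tpm4 in both groups. In each of the 8 tested genes the spread was smaller in Vps13c-cKO than in WT. That difference was not tested or set against all tested genes. The 8 genes share the same 12 mice, so it is not read as a trait of these genes.

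To set the genes against each other, CPM was divided by the length of the union of annotated exons in kilobases (CPM per kilobase). In Vps13c-cKO the order was Tnnc1 at 1220 ± 74.4, Tnni3 at 1083 ± 28.9, Tpm1 at 898 ± 18.0 and Tnnt2 at 825 ± 25.7 CPM per kilobase (SD, n = 6). In WT it was Tnni3 at 1260 ± 60.1, Tnnc1 at 1075 ± 73.7, Tpm1 at 1004 ± 35.9 and Tnnt2 at 905 ± 53.7 CPM per kilobase (SD, n = 6). With this length Tnnc1 stood first in Vps13c-cKO and second to Tnni3 in WT. The ranges of Tnnc1 and Tnni3 overlapped in Vps13c-cKO (1102 to 1297 and 1052 to 1122), and in WT those of Tnnc1 and Tpm1 (945 to 1138 and 962 to 1048) and of Tpm1 and Tnnt2 (962 to 1048 and 828 to 976).

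Below these stood Tpm4 at 46.2 ± 2.22 CPM per kilobase in Vps13c-cKO and 47.9 ± 3.02 in WT, and Tpm3 at 9.85 ± 0.426 and 10.3 ± 0.96. Then came Tnnt1 at 8.76 ± 0.63 CPM per kilobase in Vps13c-cKO and 5.94 ± 0.655 in WT, Tpm2 at 4.73 ± 0.4 and 2.89 ± 0.391, and Tnni1 at 0.194 ± 0.101 and 0.0301 ± 0.0123 (SD, n = 6 each). The order among the 4 abundant genes depends on the length used. The union of Tnnt2 exons is 7752 bases, while its median coding transcript has 1095.5, and with the latter length Tnnt2 ranked first in both groups, at 5837 CPM per kilobase in Vps13c-cKO and 6404 in WT. Tnnc1 stood below Tnni3, Tpm1 and Tnnt2 in both groups with the longest or the median coding transcript, at 1761 CPM per kilobase in Vps13c-cKO and 1551 in WT, so its first place is seen with the union of exons only. The gap between the 4 abundant genes and the others was seen with every length used.

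Among the tropomyosin genes, Tpm1 made up nearly all of the per-length signal. Its share was 93.7% ± 0.292 in Vps13c-cKO and 94.3% ± 0.353 in WT (SD, n = 6 each). Tpm4 held 4.82% ± 0.271 in Vps13c-cKO and 4.5% ± 0.262 in WT, and Tpm3 1.03% ± 0.0365 and 0.973% ± 0.0975. Tpm2 held 0.493% ± 0.0411 in Vps13c-cKO and 0.272% ± 0.0413 in WT, with ranges of 0.43 to 0.541% and 0.218 to 0.336%.

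**Figure D4:**
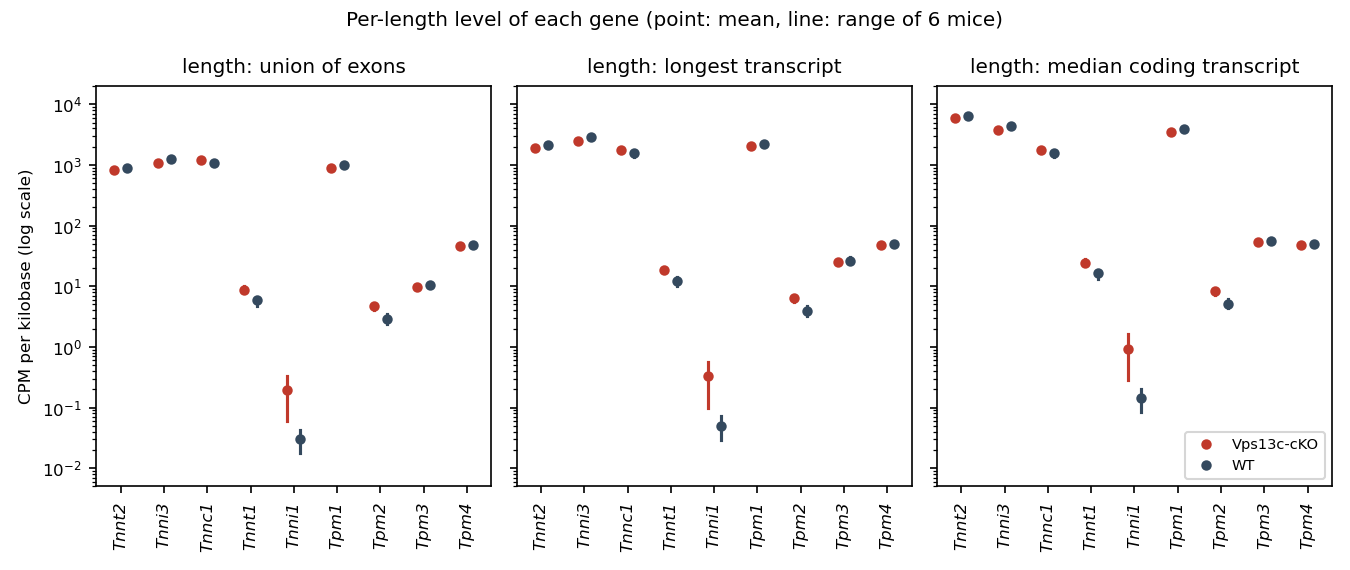
Level per length of each gene, in CPM per kilobase on a log axis, with 3 choices of gene length. Points are group means and lines the range of 6 mice, Vps13c-cKO left of WT. Tnnt2, Tnni3, Tnnc1 and Tpm1 stand above the other 5 genes in each panel, while their order among themselves changes with the length.

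The troponin I and troponin T genes here lie in 2 pairs, and within each pair the genes moved in different directions. For Tnni1 this rests on 56 reads in Vps13c-cKO and 9 in WT, without a test in the main fit. Tnnc1 lies apart from them, on chromosome 14. By the order of the GENCODE M21 annotation, Tnnt1 and Tnni3 are next to each other among tested genes of chromosome 7, where 18.5% of tested genes were called. There Tnnt1 rose while Tnni3 fell, and on the other side of Tnnt1 lies Ppp1r12c, a phosphatase subunit gene that did not pass (log2 fold change 0.10 ± 0.05 SE, edgeR adjusted p = 0.172). Of the 10 tested genes on each side of Tnni3, 20 in all, 2 were higher (Ttyh1 and Tnnt1) and 1 lower (Dnaaf3). Dnaaf3 shares exon bases with Tnni3 on the same strand, so its value may not be independent of Tnni3 reads. On chromosome 1, Tnni1 and Tnnt2 are parted by the tested gene Lad1 alone (log2 fold change 0.09 ± 0.21 SE, edgeR adjusted p = 0.847). On the far side of Tnni1 stands Phlda3, a p53 target, which rose by 1.44 ± 0.11 on the log2 scale (SE; edgeR adjusted p = 1.53e-08).

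Tpm1 lies close to the knocked-out gene. On chromosome 9 only 1 tested gene, Tln2, the gene of the cytoskeletal linker talin-2, stands between Tpm1 and Vps13c, and it did not pass (log2 fold change -0.03 ± 0.05 SE, edgeR adjusted p = 0.748). Of the 20 tested genes nearest to Tpm1, 1 was higher (Rps27l) and 1 lower (Vps13c itself). Lactb, on the other side of Tpm1, stood at a log2 fold change of 0.11 ± 0.06 (SE; edgeR adjusted p = 0.211). Tpm2 has Tln1, the talin-1 gene, as its neighbour on chromosome 4, and Tln1 rose by 0.16 ± 0.04 (SE; edgeR adjusted p = 0.0123). Among 20 neighbours, 3 were called around Tnnc1 (all higher), 3 around Tpm3 (all lower) and 1 around Tpm4 (lower). Around Tnnt2, and likewise around Tnni1, whose windows share genes, 3 were higher and 2 lower. Over all tested genes 10.7% were called, and no window was tested against that share. An effect of the altered Vps13c locus on Tpm1 was not tested.

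Promoters of 4 genes that moved in different directions are given for comparison, Tnni3 and Tnnt1 as neighbours and Tnnc1 and Tpm1 as carriers of the same motif. The sequences are from RefSeq, build GRCm38.p6, and run 5′ to 3′ on the gene's strand from 250 bases before to 50 after an annotated start site. The RefSeq positions of Tnni3 and Tpm1 reach further upstream than the start sites used here. What is present or absent therefore holds for the windows shown only. Capitals mark matches of the motifs named after them.
Tnni3, chr7:4522479-4522778, minus strand: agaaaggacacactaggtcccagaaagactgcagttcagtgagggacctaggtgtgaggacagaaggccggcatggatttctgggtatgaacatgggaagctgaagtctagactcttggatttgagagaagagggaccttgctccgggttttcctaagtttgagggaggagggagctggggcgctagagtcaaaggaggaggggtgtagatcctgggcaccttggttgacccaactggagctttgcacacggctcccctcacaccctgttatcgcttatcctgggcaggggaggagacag
Tnnt1, chr7:4515926-4516225, minus strand: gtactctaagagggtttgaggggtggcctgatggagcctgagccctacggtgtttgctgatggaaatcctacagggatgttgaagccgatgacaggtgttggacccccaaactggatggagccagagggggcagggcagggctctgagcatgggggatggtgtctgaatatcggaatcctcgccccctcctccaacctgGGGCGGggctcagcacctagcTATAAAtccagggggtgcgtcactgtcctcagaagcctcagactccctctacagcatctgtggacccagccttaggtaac
Tnnc1, chr14:31208062-31208361, plus strand: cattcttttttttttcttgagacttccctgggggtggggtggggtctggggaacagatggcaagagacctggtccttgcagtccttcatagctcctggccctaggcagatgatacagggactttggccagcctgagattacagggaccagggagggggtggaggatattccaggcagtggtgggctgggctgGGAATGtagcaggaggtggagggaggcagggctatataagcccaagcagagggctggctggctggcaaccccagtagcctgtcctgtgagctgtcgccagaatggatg
Tpm1, chr9:67049164-67049463, minus strand: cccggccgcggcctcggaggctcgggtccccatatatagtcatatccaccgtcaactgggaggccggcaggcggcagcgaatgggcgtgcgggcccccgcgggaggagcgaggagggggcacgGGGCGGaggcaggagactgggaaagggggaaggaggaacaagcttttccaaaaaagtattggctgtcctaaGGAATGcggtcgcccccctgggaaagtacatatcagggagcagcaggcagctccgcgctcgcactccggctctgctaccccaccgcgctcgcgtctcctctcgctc

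The letters were searched on both strands, and the motifs do not overlap in the 4 windows shown. In 32851 promoter windows of the same length, CATTCC (the MCAT element of TEAD factors) occurred in 14.7%. The letters AGATAA, read by GATA factors, occurred in 11.2%, the E-box letters CAGCTG in 16.3%, the core promoter letters TATAAA in 13.6% and GGGCGG, read by Sp1, in 35.7%. The MEF2 consensus occurred in 0.557% and the CArG box in 1.63% of the windows, and neither was in a window of the 9 genes. Of the 12 windows of these genes, 6 held CAGCTG (Tnni1, Tnnt2, Tpm2, Tpm3 and Tpm4), 5 held GGGCGG (Tnnt1, Tpm1, Tpm2, Tpm3 and Tpm4), 3 held CATTCC, 2 held AGATAA (Tnnt2 and Tpm3) and 1 held TATAAA. The windows of Tnni1 overlap each other, and no test was made of these counts. CATTCC was found in Tnnc1 and Tpm1, on the opposite strand at positions -58 and -56 from the start site (printed above as GGAATG), and in a window of Tnnt2. Tnnc1 rose while Tpm1 and Tnnt2 fell, so genes with these letters did not share a direction. Tnnt1 held TATAAA at position -30 and GGGCGG at position -51, Tpm1 held GGGCGG at position -127, and none of the motif letters was in the window of Tnni3. A match of letters is a description of the sequence only.

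The fast-fibre troponins Tnni2 and Tnnt3 and the skeletal actin gene Acta1 had larger fold changes in the fit than the 8 tested troponin and tropomyosin genes. Tnni1, not tested there, had a log2 fold change of 2.60 in the edgeR fit without the filter on low counts. Of the fast-fibre troponins, Tnni2 was at 6.59 ± 1.05 CPM in Vps13c-cKO and 0.757 ± 0.281 CPM in WT, and Tnnt3 at 4.95 ± 1.09 and 0.72 ± 0.298 CPM (SD, n = 6 each), while Tnnc2, most of whose exon bases overlap Ube2c, was listed at 0 and is not read as a level. Their log2 fold changes were 3.13 ± 0.19 and 2.77 ± 0.23 (SE), and both genes lie on chromosome 7. Of 13 tested genes of actin and the filament's caps, 3 were higher and 1 lower. The skeletal actin gene Acta1 rose by 1.82 ± 0.14 on the log2 scale, the filament-binding gene Xirp2 by 0.22 ± 0.06 and the leiomodin gene Lmod3 by 0.14 ± 0.04, and the formin gene Fhod3 fell by 0.14 ± 0.04. The cardiac actin gene Actc1 (0.05 ± 0.03, edgeR adjusted p = 0.41), the cap gene Tmod1 (-0.04 ± 0.04, adjusted p = 0.604) and Lmod2 (0.08 ± 0.06, adjusted p = 0.436) did not pass.

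Of 8 thick filament genes, Mybpc3, the cardiac myosin-binding protein C gene, rose by 0.14 ± 0.04 (SE; edgeR adjusted p = 0.0161). Myl2, the ventricular regulatory light chain, fell by 0.13 ± 0.03 (adjusted p = 0.00947), and 6 genes were not called, Myh6 and Myh7 among them. On the log2 scale Tnnt2 fell by 0.13 and Tpm1 fell by 0.16 in the same fit.

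Among genes that act on the troponins, 17 kinase, phosphatase and regulatory subunit genes were tested, with 3 higher (Prkg1, Prkar1a and Prkcd) and 3 lower (Tnni3k, Prkd1 and Prkce). Tnni3k, a heart kinase named for its binding to cardiac troponin I, stood at 106 ± 4.87 CPM in Vps13c-cKO and 124 ± 5.36 CPM in WT (SD, n = 6 each), and fell by 0.23 ± 0.04 on the log2 scale (SE; edgeR adjusted p = 0.000524). Prkd1, protein kinase D1, which phosphorylates troponin I, fell by 0.55 ± 0.11 (SE; edgeR adjusted p = 0.00162). Prkg1, cyclic GMP-dependent protein kinase, rose by 0.33 ± 0.06 (SE; edgeR adjusted p = 0.00065). In these 3 genes, named for the smallest p of the list, the groups did not overlap. They overlapped in Prkar1a, Prkcd and Prkce. Over all tested genes, 10.7% were called and 4.93% showed no overlap. Prkaca, the main catalytic subunit of protein kinase A, stood at 217 ± 7.7 CPM in Vps13c-cKO and 214 ± 5.76 CPM in WT and was not called (edgeR adjusted p = 0.789).

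For the lists that follow, the share over all tested genes was 5.65% higher and 5.1% lower. Of 15 splicing factor genes that act on sarcomere transcripts, 1 was lower and none higher. Rbfox1 was at 43.3 ± 2.99 CPM in Vps13c-cKO and 54.3 ± 4.96 CPM in WT (SD, n = 6 each; log2 fold change -0.33 ± 0.06 SE, edgeR adjusted p = 0.000712). Of 18 genes listed as transcriptional regulators of cardiac troponin genes, 1 was higher, the homeodomain gene Hopx (0.17 ± 0.05, edgeR adjusted p = 0.0213). Of 12 tested genes of sarcomere protein folding and turnover, 4 were higher (Trim54, Smyd2, Hsp90aa1 and Cryab) and 1 lower. The ubiquitin ligase gene Trim54 rose by 0.19 ± 0.04 (SE; edgeR adjusted p = 0.00614), while Trim63, the ubiquitin ligase MuRF1 that acts on troponin I, fell by 0.17 ± 0.04 (edgeR adjusted p = 0.0103).

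The gene whose mouse-to-mouse pattern was most like that of Tpm1 was Tnni3. Pearson's r between their log2 CPM, each taken as the deviation from its group mean, was 0.90 over the 12 mice, so mice high in Tpm1 for their group were also high in Tnni3. For the other genes the nearest patterns were those of Hint2 to Tnnc1 (0.95), Kansl3 to Tnnt2 (0.93), Lgals9 to Tpm3 (0.93), Dnaja4 to Tpm2 (0.92), Rpp40 to Tpm4 (0.92), Rpa2 to Tnni3 (0.90) and Mdh2 to Tnnt1 (0.89). Each is the highest of all tested genes and shares library and depth with its partner, so the values are a description only.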

How the data were processed

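RNA-seq of 12 ventricles was analysed, 6 Vps13c-cKO and 6 WT, each from a separate mouse per the labels. The authors deposited raw read counts per gene, made with fastp 0.22.0, HISAT2 2.1.0 and HTSeq 0.9.1 on build GRCm39, per the submitters' processing notes. Those notes give no annotation release and no strand setting for counting. Libraries were amplified without molecular identifiers, so reads may include copies of the same molecule. The exact interval of Tnni1 takes reads as independent and sums them over mice. It leaves out such copies and the spread between mice.

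All 21959 genes entered one fit in edgeR 4.0.16 (R 4.3.3): TMM factors, filterByExpr, quasi-likelihood F test on the group, and Benjamini-Hochberg adjustment over the 12384 genes tested, called at 0.05. Names and lengths came from GENCODE M21 (21851 identifiers matched). Ratios used counts plus 0.5 and were tested by permutation. DESeq2 1.42.0, limma-voom 3.58.1, other scalings and filters, a replicate block and leaving out each mouse were alternatives. The procedure was tested on simulated data.

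The genes and lists were chosen with earlier results of these data known. Named genes are the 9 genes, the thin and thick filament lists, up to 3 called genes with the smallest p of each other list, nearest neighbours and nearest patterns. Other genes were named after their values were seen, among them Myl7, Myl1, Sln, Ckm, Prkaca and the fast myosin genes. So were genes called within the windows around the troponin and tropomyosin genes, and the remaining called markers.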

Additional observations from a re-analysis of the deposited data

Results flagged for a closer look

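Within the 6 mice of a group, 4 of 36 sets of values held 1 mouse far from the others (Dixon's test, 95% critical value 0.625), where chance gives about 1 in 20. These sets share genes and are not independent. WT mouse 3 accounts for 3 of the 4, all of them ratios that contain Tnnt2. Its Tnnt1 over Tnnt2 ratio of counts was 0.00139, against 0.00186 to 0.00212 in the other WT mice. Its Tnni3 over Tnnt2 ratio was 0.326, against 0.372 to 0.387, and its Tnnt2 over Tnnc1 ratio was 7.69, against 5.83 to 6.23. Vps13c-cKO mouse 6 had a Tpm4 over Tpm1 ratio of 0.0155, against 0.0175 to 0.0186 in the other Vps13c-cKO mice.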

How the results depend on the processing

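The 6 called genes kept their direction and call in each alternative fit and with each mouse left out. Tnni1 was tested only without the filter on low counts (2.60) and in DESeq2 (2.71), both past the threshold. Leaving out 1 mouse moved the Tpm4 over Tpm1 log2 difference between 0.078 and 0.14 and that of Tnni3 over Tnnt2 between -0.12 and -0.071, with a call gained without Vps13c-cKO mouse 6 and WT mouse 3 in turn. The replicate numbers did not pair the mice: 0 of 6 same-numbered pairs correlated above 0.1 (-0.04 to 0.06), and 1 of 6 mice correlated best with its own number. With the replicate block as a sign permutation over pairs, 5 ratios reached its smallest p of 0.0312 and did not pass after adjustment over the 9 (0.0563), with differences of 2.45 (Tnni1/Tnni3), 0.70 (Tnnt1/Tnnt2), 0.88 (Tpm2/Tpm1), -0.40 (Tnni3/Tnnc1) and -0.32 (Tnnt2/Tnnc1). In edgeR the block changed none of these genes' calls. Levels depend on gene length. Over the 12 mice, the longest transcript gave 2014 CPM per kilobase for Tnnt2, 15.3 for Tnnt1, 2651 for Tnni3, 1656 for Tnnc1, 2134 for Tpm1, 5.09 for Tpm2 and 25.9 for Tpm3. The median coding transcript gave 6120 for Tnnt2, 20.6 for Tnnt1, 4133 for Tnni3, 0.539 for Tnni1, 1656 for Tnnc1, 3756 for Tpm1, 6.79 for Tpm2 and 54.0 for Tpm3. Shares of the tropomyosin signal with these lengths were 96.4% and 97.2% for Tpm1, 0.234% and 0.179% for Tpm2, 1.17% and 1.40% for Tpm3, and 2.21% and 1.26% for Tpm4. Depth limits Tnni1 most, with 9 reads in all WT libraries.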
